A study of Saccharomyces cerevisiae with 6 samples.

Results

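The genes described here are the 448 features of the budding yeast genome that lay nearest to chromosome ends, of 7051 features with an accepted value in every library. For each nuclear chromosome other than V and XI, the outermost feature start and the outermost feature end in the expression tables marked the ends. A feature was taken when it began or ended within 30 kb of such a mark, so that distances run from the outermost listed feature and not from the telomeric repeats. The rule used positions alone and no expression value. Of 450 features in these windows, 2 lacked an accepted value. The 448 genes came from 28 ends of 14 chromosomes, with 12 to 21 at each end. Nearest to the edge of the window, YNR065C, FIT3 and ATP15 lay inside at 29.8 kb, and YFL051C and SPB1 lay just outside at up to 30.1 kb. YNR065C held 7.53 and 6.63 FPKM in D8A, 5.76 and 9.32 in D8B, and 48.9 and 78.2 in WT. YFL051C held 4.45 and 1.33 FPKM in D8A, 1.77 and 2.02 in D8B, and 3.13 and 2.83 in WT.

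Polyadenylated RNA was sequenced from 3 strains labelled as mating type a, with 2 libraries each, grown in YPD, a rich glucose medium. D8A and D8B carried the same labelled genotype. It listed his3, leu2, met15 and ura3, with delta-tsa1:KAN and delta-gpx3:KAN, delta-gpx1:URA3 and delta-prx1:URA3, delta-tsa2:LEU2, delta-ahp1:HIS3, delta-srx1:NAT, delta-gpx2:HYG and delta-dot5:MET15. These labels name 8 thiol peroxidases, which reduce hydrogen peroxide and organic peroxides, and SRX1, the sulfiredoxin that repairs some of the peroxiredoxins among them. SRX1 was not lower in D8A and D8B, as given below. WT was described as having a single chromosome XI, with HIS3 and KanMX6 inserted between YKL006C-A and YKL006W. Its other alleles were ade2-1, trp1-1, can1-100, his3-11,15, leu2-3 and ura3, with GAL and [phi+]. All 3 strains carried the strain label S288c, but ade2-1, trp1-1 and can1-100 are alleles known from the W303 laboratory strain. Every comparison with WT is therefore between strains that differ in marker alleles as well as in the deleted genes, and these cannot be told apart. The labels do not tell whether a strain's 2 libraries are separate cultures, so the tests may rest on technical spread alone.

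Chromosome ends of budding yeast hold repeated elements, small families of closely similar genes and genes for growth on particular nutrients. Silent information regulator (Sir) proteins recruited by Rap1 spread inward from the telomeric repeats and from the silent mating cassettes and repress genes placed beside them. Many genes near the ends are lowly expressed in rich medium and are turned on by specific factors, such as Aft1 when iron is short. The content of chromosome ends varies between laboratory strains more than that of the chromosome interior.

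The sequences that bear on the results are 6 promoters, each from 250 bases before to 50 bases after the annotated start, read from the R64 genome. COS12 (chrVII:2540-2839, plus strand), AIF1 (chrXIV:778689-778988, minus strand) and CHA1 (chrIII:16831-17130, minus strand) belong to the genes with the largest rises. FIT1 (chrIV:1504851-1505150, minus strand), FIT3 (chrXV:1061006-1061305, minus strand) and ENB1 (chrXV:21262-21561, minus strand) belong to the iron uptake genes, whose values in D8B and D8A are given below although none passed the test between these strains. Each is written 5′ to 3′ along the gene. Capitals mark matches, on either strand, to the binding motifs TGCACCC of Aft1, TCGTATA of Upc2 and Ecm22, TTACTAA of Yap1, AGGGG of Msn2 and Msn4, and TGACTC of Gcn4.
COS12: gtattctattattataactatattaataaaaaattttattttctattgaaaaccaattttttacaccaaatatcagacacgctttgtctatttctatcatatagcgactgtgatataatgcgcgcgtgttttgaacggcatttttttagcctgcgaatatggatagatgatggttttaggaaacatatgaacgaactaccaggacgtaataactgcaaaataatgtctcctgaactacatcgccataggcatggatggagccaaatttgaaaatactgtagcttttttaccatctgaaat
AIF1: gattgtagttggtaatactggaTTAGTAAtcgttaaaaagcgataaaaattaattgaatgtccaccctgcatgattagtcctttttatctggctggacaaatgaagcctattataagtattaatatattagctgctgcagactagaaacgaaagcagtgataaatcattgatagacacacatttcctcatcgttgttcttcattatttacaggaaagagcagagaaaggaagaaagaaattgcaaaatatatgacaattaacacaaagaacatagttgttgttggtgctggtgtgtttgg
CHA1: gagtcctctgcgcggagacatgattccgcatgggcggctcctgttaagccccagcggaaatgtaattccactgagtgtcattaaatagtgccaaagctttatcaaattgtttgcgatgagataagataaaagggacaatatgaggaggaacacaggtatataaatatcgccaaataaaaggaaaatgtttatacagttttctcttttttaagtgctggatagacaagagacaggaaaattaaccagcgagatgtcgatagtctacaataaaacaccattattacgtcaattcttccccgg
FIT1: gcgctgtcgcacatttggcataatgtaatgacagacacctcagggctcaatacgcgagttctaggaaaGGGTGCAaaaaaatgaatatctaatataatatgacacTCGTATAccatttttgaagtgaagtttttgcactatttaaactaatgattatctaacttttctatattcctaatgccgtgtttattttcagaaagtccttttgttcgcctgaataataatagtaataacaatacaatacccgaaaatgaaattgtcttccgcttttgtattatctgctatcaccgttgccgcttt
FIT3: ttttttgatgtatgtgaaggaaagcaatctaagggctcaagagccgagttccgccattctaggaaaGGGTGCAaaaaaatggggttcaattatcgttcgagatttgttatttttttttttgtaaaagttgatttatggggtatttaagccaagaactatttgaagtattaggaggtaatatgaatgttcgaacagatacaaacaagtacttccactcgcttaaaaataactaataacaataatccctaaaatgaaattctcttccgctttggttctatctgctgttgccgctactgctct
ENB1: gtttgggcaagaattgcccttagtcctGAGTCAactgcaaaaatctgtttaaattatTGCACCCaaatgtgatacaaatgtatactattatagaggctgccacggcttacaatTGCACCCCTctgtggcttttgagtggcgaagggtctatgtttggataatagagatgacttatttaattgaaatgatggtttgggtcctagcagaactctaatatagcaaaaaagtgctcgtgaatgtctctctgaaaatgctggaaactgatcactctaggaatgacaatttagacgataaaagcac
COS12 and CHA1 held none of the 5 motifs in this window, and AIF1 held the reverse complement of TTACTAA. FIT1 and FIT3 shared a run of 25 bases that holds the reverse complement of TGCACCC, and FIT1 also held TCGTATA. ENB1 held TGCACCC in 2 places, 1 of them overlapping the reverse complement of AGGGG, and the reverse complement of TGACTC. The 7 letters TGCACCC stood in 9 of 349 chromosome-end promoters (2.58%), against 77 of 5934 promoters of all annotated protein-coding features with equal coordinates (1.3%). They stood in 4 of the 6 iron uptake genes near chromosome ends. TCGTATA stood in 6.88% of chromosome-end promoters and 4.16% of all. TTACTAA stood in 6.3% of chromosome-end promoters and 7.47% of all, AGGGG in 20.6% of chromosome-end promoters and 21.8% of all, and TGACTC in 6.88% of chromosome-end promoters and 8.06% of all. These matches are descriptions of the sequence, not of binding.

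Estimated depth was 4.02 M and 8.05 M mapped fragments in D8A, 14.1 M and 10.6 M in D8B, and 9.14 M and 10.1 M in WT. Of the 9 genes labelled as deleted, 8 were at 9.94 FPKM or less in every null library and at 27.3 FPKM or more in WT. SRX1 went against its label, with 319 and 415 FPKM in D8A, 654 and 584 in D8B, and 52.8 and 76.8 in WT, so all directions below rest on labels that this gene does not match. The a-specific genes MFA1, MFA2, STE2 and BAR1 were present in every library, at 33.7 FPKM or more, and of the alpha-specific genes, MF(ALPHA)1 was at 1.44 to 5.38 FPKM, MF(ALPHA)2 at 19.2 to 31.9 FPKM and STE3 at 8.13 to 19.0 FPKM over the 6 libraries. The median chromosome-end gene was at 12.3 to 15.6 FPKM in the 6 libraries, against 36.6 to 45.6 FPKM for the other nuclear genes. The median chromosome-end feature was 788 bp long, and 49 of the 448 were under 300 bp, where FPKM is on another scale than for long features. In 168 of the 448 (37.5%), over 50% of the 50-base words of the sequence occur elsewhere in R64, against 5.6% of the other nuclear features. For these genes the value depends on how reads were divided among copies. There were 11 pairs of chromosome-end genes with equal FPKM in every library, such as PAU6 and PAU18. In 217 genes no 50-base word was repeated.

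A feature was called when limma gave an adjusted p under 0.05, with Benjamini-Hochberg adjustment over the 6925 features with a mean of at least 1 FPKM, of which 430 were chromosome-end genes. Changes are on the log2(FPKM + 1) scale, which understates those of lowly expressed genes. For the mean of both null strains against WT, limma called 49 of the 430 chromosome-end genes (11.4%), 16 higher and 33 lower. Over all features tested 6.45% were called, 1.55% higher and 4.91% lower. For D8A against WT limma called 51 chromosome-end genes (11.9%), 20 higher and 31 lower, where 5.05% of all features were called, 1.23% higher and 3.83% lower. For D8B against WT it called 44 (10.2%), 14 higher and 30 lower, where 4.9% of all features were called, 1.21% higher and 3.68% lower. These 3 comparisons share the WT libraries. For D8B against D8A limma called 6 (1.4%), 1 higher and 5 lower, where 0.332% of all features were called, 0.217% higher and 0.116% lower.

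The typical chromosome-end gene was close to WT. The median log2 change was -0.05 for both null strains against WT, beside 0.01 over all features tested. The median was -0.01 for D8A against WT, -0.04 for D8B against WT and 0.01 for D8B against D8A, all smaller than the SD of 0.14 between library medians. A change of more than 1 log2 unit between the null strains and WT was seen in 15.3% of chromosome-end genes, beside 7.34% of all features. Between D8B and D8A, which share a labelled genotype, it was seen in 10.2% of chromosome-end genes, beside 4.2% of all features. A higher share is thus not particular to the comparison with WT. The counts moved with single libraries. Without WT replicate 2, limma called 24 chromosome-end genes for both null strains against WT (5.58%), beside 1.65% of all features, and without WT replicate 1 it called 29 (6.74%), beside 2.9%.

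**Figure D1:**
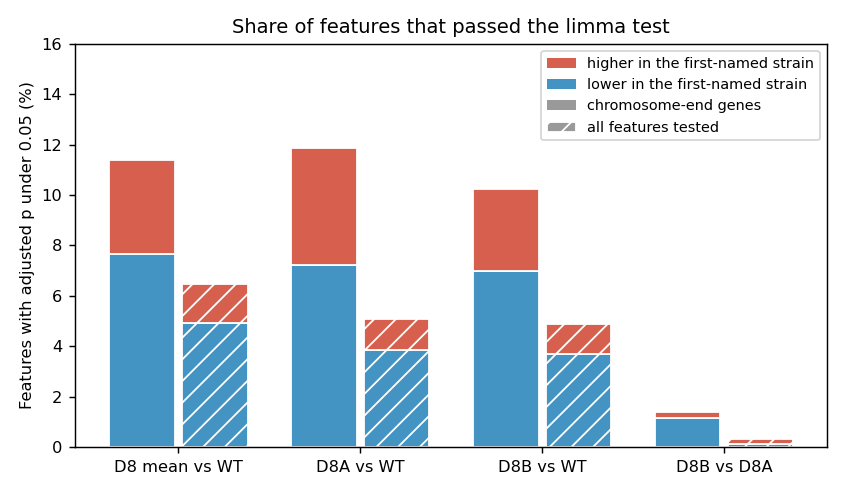
Share of features with a limma adjusted p under 0.05 in 4 comparisons, on the y axis in percent, with plain bars for the 430 chromosome-end genes and hatched bars for all 6925 features tested. Red is higher and blue lower in the strain named first. The plain bars reach 11.4%, 11.9%, 10.2% and 1.4%, and the hatched bars 6.45%, 5.05%, 4.9% and 0.332%.

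For both null strains together, the share of called genes was highest in value between 10 and 20 kb. In the other bins of distance it was nearer to the 6.45% of all features tested. For D8A against WT the shares were 8.86% in the outermost 10 kb, 17.9% from 10 to 20 kb and 9.42% beyond, beside 5.05% of all features. For D8B against WT they were 8.23%, 15.7% and 7.25%, beside 4.9%. In the outermost 10 kb, 7 of 158 tested genes rose and 6 fell (8.23%) in the null strains against WT. From 10 to 20 kb, 9 of 134 rose and 16 fell (18.7%), and from 20 to 30 kb limma called 0 of 138 higher and 11 lower (7.97%), with 8 higher and 27 lower at an unadjusted p under 0.05. The outermost 10 kb also held the most repeated sequence, with 61.2% of genes mostly repeated, against 36% from 10 to 20 kb and 10.1% beyond. The median level of a gene was 11.6 FPKM in the outermost 10 kb, 15.0 from 10 to 20 kb and 23.3 beyond. Among genes with no repeated 50-base word, 31 of 208 were called (14.9%), 11 higher and 20 lower. Among mostly repeated genes, 14 of 166 were called (8.43%), 4 higher and 10 lower, again beside 6.45% of all features tested. The part of repeated sequence in these counts was not tested. By end, the median change of the null strains against WT ran from -0.53 at the left end of chromosome XVI to 0.37 at the right end of XIV. The XIV right end had 4 higher and 3 lower calls among 14 genes, and the XVI left end had 0 calls among 15 by limma, with 6 lower at an unadjusted p under 0.05. The share of all features that passed the unadjusted threshold was not counted. PAU6, among the 4 higher calls, had values equal to those of PAU18 at the left end of XII. That rise cannot be placed at either end.

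**Figure D2:**
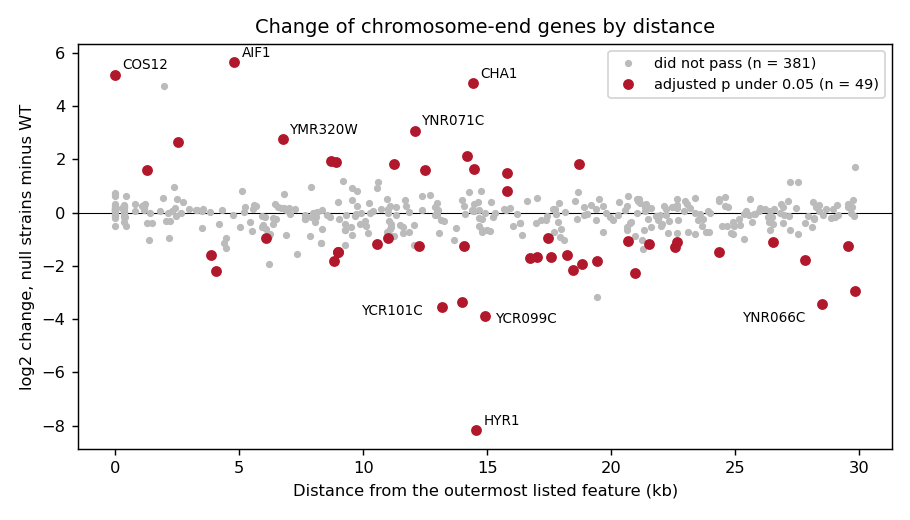
Fitted log2 change of the 430 tested chromosome-end genes (y axis, mean of D8A and D8B minus WT) by distance from the outermost listed feature (x axis, kb), with the 49 called genes in red and the others in grey. AIF1, COS12 and CHA1 lie highest and HYR1 lowest, and fitted values of genes listed at 0 in a strain depend on the pseudocount.

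HYR1, also named GPX3, is the labelled deletion that lies near a chromosome end (chrIX:423128-423619). It encodes a thiol peroxidase that passes peroxide signals to the transcription factor Yap1. HYR1 was listed at 0 and 0.431 FPKM in D8A and at 0 in both D8B libraries, and held 324 and 308 FPKM in WT. Its level follows the labelled genotype and is a check of the labels.

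A group of 5 called genes was at or near 0 in WT and present in all null libraries. These were the nuclear features that were below 0.5 FPKM in both WT libraries and at 2.5 FPKM or more in all 4 null libraries, and all 5 were chromosome-end genes. The 2.5 FPKM limit was chosen after the values were seen. These genes are COS12 and YGL262W at the left end of chromosome VII, and AIF1, YNR071C and PDR18 at the right end of chromosome XIV. None of the 5 holds a repeated 50-base word. The opposite pattern, near 0 in the null libraries and at 2.5 FPKM or more in WT, was seen in 8 nuclear features, of which HYR1 was the chromosome-end gene. Of these 8, DOT5, GPX1, GPX2, HYR1 and PRX1 are labelled deletions, and YDR344C, YLR302C and YNL067W-A are not. No fold is given for these 5 genes because WT was at or close to 0.

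COS12 (YGL263W, chrVII:2790-3932), the outermost feature listed at its end, belongs to the COS family, whose proteins take part in sorting membrane proteins for breakdown in the vacuole. It held 35.2 and 47.0 FPKM in D8A, 34.2 and 27.5 in D8B, and was listed at 0 in both WT libraries. All 4 null libraries were above both WT libraries, with a limma adjusted p of 1.18e-05 for both null strains together. YGL262W (chrVII:5312-5839), an uncharacterized gene, held 4.6 and 8.04 FPKM in D8A, 3.71 and 5.22 in D8B, and was listed at 0 in WT. The limma adjusted p was 0.00453 for both null strains together. For D8B alone it was 0.0155, and its highest value, 0.0952, was reached without D8B replicate 2. Beside these, YGL260W (chrVII:6860-7090), a 231 bp gene with repeated sequence, held 4.08 and 2.71 FPKM in D8A, 1.29 and 1.89 in D8B, and 11.9 and 17.4 in WT. It fell by 2.21 log2 units (SE 0.29, limma adjusted p = 0.00427), so genes of this end moved in opposite directions. The call was lost with the midpoint of the deposited interval in place of FPKM (adjusted p = 0.0535).

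AIF1 (YNR074C, chrXIV:777602-778738) encodes a relative of the mammalian apoptosis-inducing factor of mitochondria. It held 36.5 and 54.7 FPKM in D8A, 63.8 and 54.7 in D8B, and 0 and 0.106 in WT, with a limma adjusted p of 9.87e-06 for both null strains together. YNR071C (chrXIV:770440-771468), annotated as an aldose 1-epimerase relative, held 7.83 and 11.1 FPKM in D8A, 5.99 and 5.7 in D8B, and was listed at 0 in WT (limma adjusted p = 0.000973). PDR18 (YNR070W, chrXIV:765375-769376) encodes an ATP-binding cassette transporter of the multidrug resistance group. It held 3.27 and 2.97 FPKM in D8A, 3.12 and 4.13 in D8B, and was listed at 0 in WT (limma adjusted p = 0.0115). The groups did not overlap for any of these 3 genes. In D8A alone the call of PDR18 (limma adjusted p = 0.031) was lost under 5 of 14 alternatives, among them leaving out any one of WT replicate 1, WT replicate 2, D8A replicate 1 or D8A replicate 2, with a highest adjusted p of 0.141. In D8B alone it was 0.0225 and was lost without D8B replicate 1 and without D8B replicate 2, with a highest adjusted p of 0.131.

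Between AIF1 and YNR071C lie 2 genes with similar copies elsewhere. HXT17, a transporter of the hexose transporter family, is repeated over 30.2% of its 50-base words. It held 3.06 and 2.81 FPKM in D8A, 1.64 and 3.41 in D8B, and 0.58 and 0.679 in WT, and did not pass the test (limma adjusted p = 0.12). YNR073C, annotated as a putative mannitol dehydrogenase, is repeated over 58.5% and held 3.43 and 6.04 FPKM in D8A, 2.49 and 2.81 in D8B, and 2.22 and 4.28 in WT, where the groups overlapped. COS10, which lies nearer to the end than AIF1 and holds no repeated word, held 29.9 and 20.5 FPKM in D8A, 16.3 and 28.5 in D8B, and 15.7 and 16.1 in WT. Whether the sequence of COS12, YGL262W, AIF1, YNR071C and PDR18 is present in the WT genome was not tested.

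**Figure D3:**
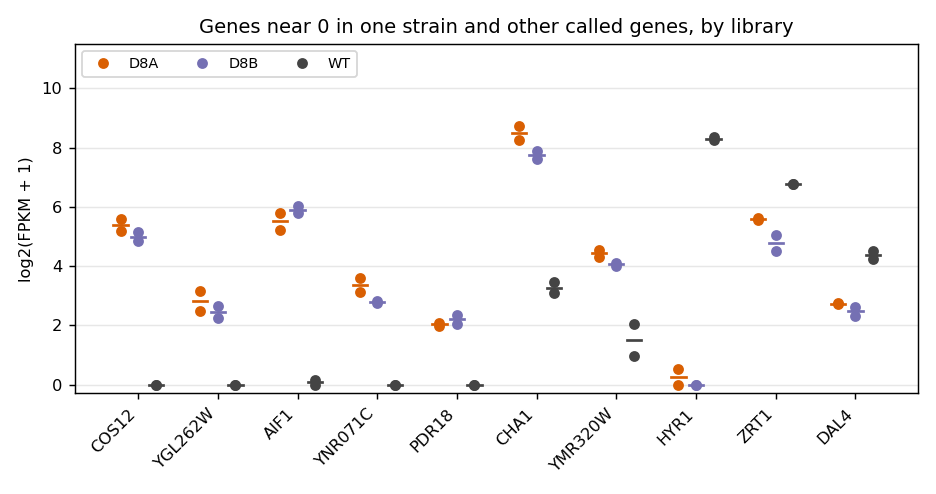
Level of 10 chromosome-end genes in each library, as log2(FPKM + 1) on the y axis, with 2 points for each strain (D8A, D8B and WT) and a bar at their mean. For COS12, YGL262W, AIF1, YNR071C and PDR18 both WT points lie at or close to 0 and all null points above 1, and HYR1 shows the opposite.

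CHA1 (YCL064C, chrIII:15798-16880) had the largest rise among called genes with a value above 0 in both WT libraries. It encodes the serine and threonine ammonia-lyase that breaks these amino acids down and is known to be induced by them. CHA1 held 304 and 423 FPKM in D8A, 196 and 235 in D8B, and 7.46 and 10 in WT. All null libraries lay far above both WT libraries, and the change was 4.85 log2 units (SE 0.22, limma adjusted p = 2.24e-05). YMR320W, an uncharacterized gene, held 18.9 and 22.4 FPKM in D8A, 16.1 and 15.2 in D8B, and 3.11 and 0.939 in WT. It rose by 2.75 log2 units (SE 0.31, limma adjusted p = 0.00209). The calls of CHA1 and YMR320W held under every alternative tried.

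HXK1, a hexokinase that is repressed by glucose, lies at the right end of chromosome VI. It held 201 and 206 FPKM in D8A, 97.6 and 69.3 in D8B, and 43.9 and 39.2 in WT. Both null strains were above WT, D8A more so, and the change for D8A against WT was 2.26 log2 units (SE 0.23, limma adjusted p = 0.00197). For both null strains together the adjusted p was 0.00322, and 0.0718 without WT replicate 2. For D8B against WT the adjusted p was 0.0591. YFR052C-A overlaps HXK1, so the reads of these genes cannot be told apart, and it rose with it.

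MGA2, a membrane-held activator of the fatty acid desaturase gene OLE1, is at the right end of chromosome IX. It held 69.6 and 44.9 FPKM in D8A, 41.4 and 85.6 in D8B, and 14.5 and 17.2 in WT. The groups did not overlap and MGA2 rose by 1.81 log2 units (SE 0.31, limma adjusted p = 0.0144), though the call was lost under 4 of 15 alternatives, among them leaving out either WT library, with a highest adjusted p of 0.106. Of the other 7 called features at this end, counting calls in any comparison with WT, all were lower, among them HYR1, the labelled deletion. For both null strains together limma called 1 of 19 features at this end higher and 6 lower. Lower calls were also the more frequent over all features tested, at 4.91%, beside 1.55% higher. DAL4, the allantoin permease, held 5.69 and 5.61 FPKM in D8A, 5.18 and 4.03 in D8B, and 18.0 and 21.7 in WT. DAL4 fell by 1.77 log2 units (SE 0.21, limma adjusted p = 0.00273). DAL3, an enzyme of allantoin breakdown, fell by 1.29 (SE 0.26, limma adjusted p = 0.025), and its call was lost under 5 of 15 alternatives, among them without WT replicate 1, without WT replicate 2 and without D8B replicate 2, with a highest adjusted p of 0.212.

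The nearest features on either side of HYR1 were not called for both null strains together. On the inner side, YIR036W-A, an uncharacterized gene, held 32.6 and 44.5 FPKM in D8A, 68.8 and 60.3 in D8B, and 40.3 and 34.5 in WT. IRC24, which overlaps it and is annotated as a sepiapterin reductase relative, held 21.1 and 27.0 FPKM in D8A, 34.6 and 34.4 in D8B, and 30.1 and 27.9 in WT. WT lay within the range of the null libraries in both genes, with log2 changes of 0.40 and -0.01. GTT1, a glutathione transferase and the next feature toward the telomere, held 36.2 and 57.0 FPKM in D8A, 104 and 61.0 in D8B, and 120 and 131 in WT. It fell by 1.45 log2 units in D8A (SE 0.31, limma adjusted p = 0.0434), and the call was lost under 6 of 15 alternatives, among them without WT replicate 1, without WT replicate 2 and without D8A replicate 1, with a highest adjusted p of 0.272. In D8B the adjusted p was 0.313. Further away at this end, LYS1, which makes the last step of lysine synthesis, held 98.3 and 118 FPKM in D8A, 87.1 and 86.1 in D8B, and 171 and 205 in WT. It fell by 0.95 log2 units (SE 0.19, limma adjusted p = 0.0238), a call lost under 5 of 15 alternatives, among them leaving out either WT library or either D8B library, with a highest adjusted p of 0.349. YPS6, an aspartyl protease of the yapsin family, fell by 0.97 (SE 0.18, limma adjusted p = 0.0179), a call lost on leaving out either WT library, with a highest adjusted p of 0.202.

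The longest run of neighbours called the same way for both null strains together was a run of 4 lower genes. At the right end of chromosome III, YCR101C, YCR100C and YCR099C lie next to each other and fell together with GIT1, the glycerophosphoinositol permease. YCR099C, a relative of the vacuolar sorting receptor Pep1 like its neighbours, held 6.59 and 6.11 FPKM in D8A, 10.4 and 3.56 in D8B, and 85.2 and 135 in WT, and fell by 3.89 log2 units (SE 0.36, limma adjusted p = 0.000972). YNR065C and YNR066C at the right end of chromosome XIV, relatives of the same receptor, also fell, by 2.94 and 3.43 log2 units (limma adjusted p = 0.000826 and 0.000705). GIT1 held 3.12 and 7.06 FPKM in D8A, 4.33 and 2.5 in D8B, and 17.4 and 12.8 in WT. It fell by 1.68 (SE 0.34, limma adjusted p = 0.0268), and the call was lost under 5 of 15 alternatives, among them without WT replicate 1, without WT replicate 2 and without D8B replicate 2, with a highest adjusted p of 0.179. VTH1, a further relative of Pep1 on chromosome IX, fell by 0.95 (limma adjusted p = 0.0488), a call lost under 11 of 15 alternatives, among them each fit without 1 library, with a highest adjusted p of 0.435. Its near copy VTH2 did not pass the test (adjusted p = 0.0518). HMRA1, further from the end than GIT1, did not pass the test.

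For D8A against WT, 5 neighbours at the right end of chromosome XIV were called lower, which were BSC5, YNR068C, DSE4, YNR066C and YNR065C. YNR066C and YNR065C were also called lower in D8B against WT (limma adjusted p = 0.00199 and 0.00232). YNR068C was called lower for both null strains together as well (limma adjusted p = 0.0268), a call lost under 6 of 15 alternatives. DSE4, a wall glucanase of daughter cells, held 23.9 and 22.9 FPKM in D8A, 44.9 and 57.1 in D8B, and 44.9 and 53.1 in WT. Both D8A libraries lay below all others, while D8B and WT overlapped. DSE4 fell by 1.03 log2 units in D8A (SE 0.20, limma adjusted p = 0.0319), a call lost under 6 of 15 alternatives, among them leaving out either WT or either D8A library, with a highest adjusted p of 0.317. The difference between D8B and D8A had an adjusted p of 0.0988. The call of BSC5 in D8A (limma adjusted p = 0.0495) was lost under 12 of 15 alternatives, among them each fit without 1 library, with a highest adjusted p of 0.381. That of YNR068C (limma adjusted p = 0.0281) was lost under 6 of 15, among them without either WT or either D8A library, with a highest adjusted p of 0.236.

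**Figure D4:**
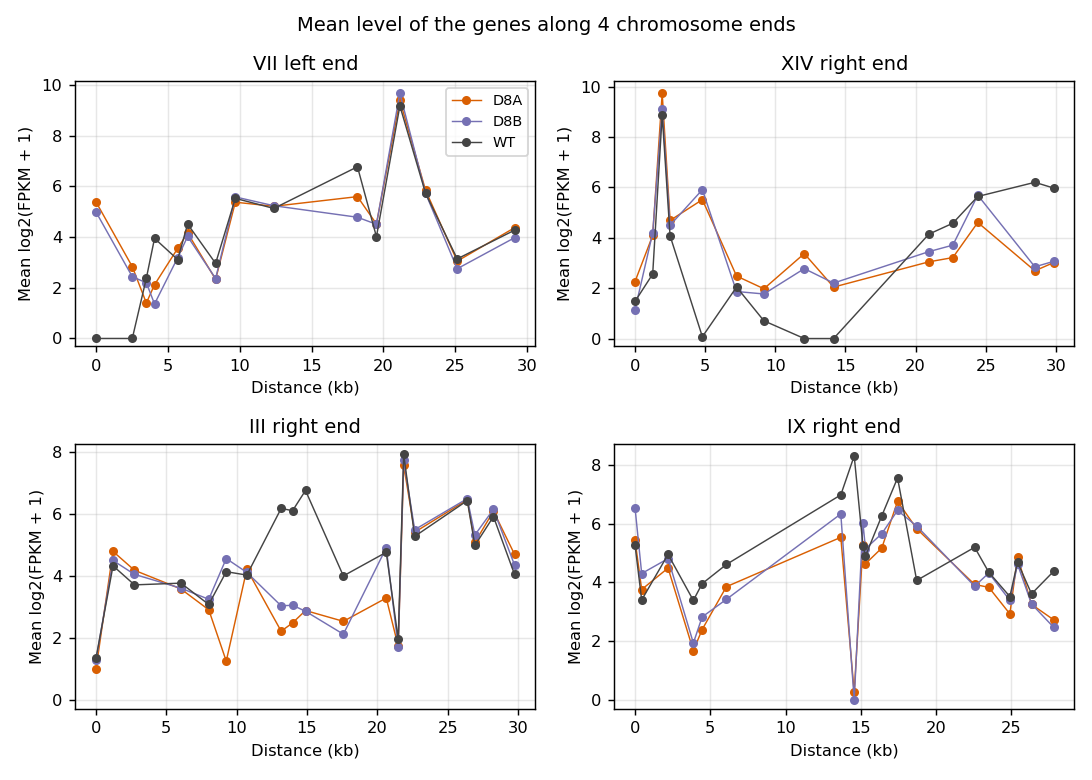
Mean log2(FPKM + 1) of the 2 libraries of D8A, D8B and WT (y axis) for each gene by its distance from the outermost listed feature (x axis, kb), at the left end of chromosome VII and the right ends of XIV, III and IX. WT lies at or close to 0 for the outermost genes of VII left and at 4.8, 12.1 and 14.2 kb on XIV right, and above the null strains from 13.2 to 17.6 kb on III right.

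Other runs of called neighbours were pairs. In all, 18 of the 49 called genes (36.7%) stood in 8 runs of adjacent genes called the same way, beside 120 of 447 called features (26.8%) over all nuclear features tested. These 2 shares are not a like comparison, since 11.4% of chromosome-end genes and 6.45% of all features were called. A higher rate of calls by itself gives more runs, and grouping of calls was not tested. YCR100C and YCR099C overlap by 29 bp and HXK1 and YFR052C-A by 143 bp, so these pairs are not separate measurements. AAD10, an aryl-alcohol dehydrogenase relative, and its neighbour YJR154W on chromosome X both fell. AAD10 held 11.8 and 11.2 FPKM in D8A, 12.2 and 9.57 in D8B, and 31.9 and 44.0 in WT, a fall of 1.66 log2 units (SE 0.20, limma adjusted p = 0.00298, and 0.0575 without WT replicate 2). YJR154W held 8.02 and 5.19 FPKM in D8A, 7.34 and 6.18 in D8B, and 28.9 and 37.8 in WT, a fall of 2.16 log2 units (SE 0.23, limma adjusted p = 0.00172). ZRT1, the high-affinity zinc transporter, held 46.4 and 48.2 FPKM in D8A, 21.6 and 32.3 in D8B, and 109 and 108 in WT. ZRT1 fell by 1.58 log2 units (SE 0.20, limma adjusted p = 0.00348), and its highest adjusted p, without WT replicate 2, was 0.0575. YDL241W, an uncharacterized gene, held 51.7 and 67.1 FPKM in D8A, 62.5 and 45.2 in D8B, and 206 and 226 in WT, a fall of 1.93 (SE 0.21, limma adjusted p = 0.00188). In each of these genes both WT libraries lay above all null libraries.

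The gene families typical of chromosome ends had between 0 and 3 calls each for both null strains together, where 6.45% of all features tested were called. Of 10 COS genes tested, COS12 rose and 0 fell for both null strains together by limma, with 3 higher and 3 lower at an unadjusted p under 0.05 and a median change of -0.06. COS6 held 57.0 and 81.1 FPKM in D8A, 92.9 and 98.0 in D8B, and 128 and 170 in WT, and fell in D8A (limma adjusted p = 0.0494). That call was lost under 8 of 15 alternatives, among them leaving out any one library other than D8A replicate 2, with a highest adjusted p of 0.409. Of 19 seripauperin and DAN genes, which encode small wall mannoproteins, 2 rose and 1 fell (15.8%). The 2 that rose, PAU6 and PAU18, are identical copies with equal values and count as 1 measurement. Each held 21.3 and 12.1 FPKM in D8A, 15.6 and 19.1 in D8B, and 3.9 and 6.07 in WT, a rise of 1.58 log2 units (SE 0.28, limma adjusted p = 0.0156), a call lost under 4 of 15 alternatives, among them leaving out either WT library, with a highest adjusted p of 0.121. PAU15 fell by 1.58 (SE 0.32, limma adjusted p = 0.0256), a call lost with the interval midpoint in place of FPKM, without WT replicate 1, without WT replicate 2 and without D8B replicate 1, with a highest adjusted p of 0.214.

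Of 7 aryl-alcohol dehydrogenase genes, AAD4 rose and AAD10 fell for both null strains together (28.6%). AAD4 held 34.9 and 39.5 FPKM in D8A, 27.7 and 24.2 in D8B, and 17.1 and 17.5 in WT, a rise of 0.81 log2 units (SE 0.16, limma adjusted p = 0.0256). The groups did not overlap, and the call was lost under 6 of 15 alternatives, among them leaving out either WT library or either D8B library, with a highest adjusted p of 0.284. Of 14 maltose and isomaltose genes, MAL12, a maltase, fell by 1.26 log2 units (SE 0.30, limma adjusted p = 0.0481), but its call was lost under 11 of 15 alternatives, with a highest adjusted p of 0.396. It held 5.73 and 5.24 FPKM in D8A, 2.98 and 4.21 in D8B, and 8.63 and 16.5 in WT. None of 9 hexose transporter and polyol genes, 8 genes of vitamin synthesis or 3 arsenic resistance genes was called by limma for both null strains against WT. At an unadjusted p under 0.05 there were 1, 0 and 0 of them. SNZ3, of vitamin B6 synthesis, held 31.6 and 54.5 FPKM in D8A, 30.8 and 24.5 in D8B, and 34.3 and 37.6 in WT, where the groups overlapped. ARR3, the arsenite exporter, held 5.65 and 8.71 FPKM in D8A, 8.46 and 8.37 in D8B, and 6.05 and 6.84 in WT. The flocculins FLO1 and FLO9 were also not called (0 of 2, and 0 of 2 at an unadjusted p under 0.05).

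For the genes of repeated elements and silent cassettes limma gave no calls, on few genes and mostly on sequence shared with other copies. None of 7 Y′ element helicase genes was called by limma in any comparison, and none had an unadjusted p under 0.05. YRF1-1, outermost at the right end of chromosome IV, held 15.0 and 13.5 FPKM in D8A, 13.4 and 17.1 in D8B, and 11.4 and 14.7 in WT, and all of its sequence is repeated. Of the 4 silent cassette genes, HMLALPHA1 was below the level tested, and none of the other 3 was called or had an unadjusted p under 0.05. All 50-base words of HMLALPHA2 and HMRA2 are repeated. HMRA1 held 178 and 200 FPKM in D8A, 240 and 186 in D8B, and 242 and 241 in WT. The R64 genome carries the alpha allele at the mating-type locus, so transcripts of the active a1 gene and of the silent copy cannot be told apart, and these values do not measure silencing. Of 36 genes of silencing and telomere upkeep, 0 were called by limma in any of the 4 comparisons, where 6.45%, 5.05%, 4.9% and 0.332% of all features were called for both null strains, D8A and D8B against WT and D8B against D8A. At these shares few calls would be made among 36 genes. At an unadjusted p under 0.05 there were 8 for both null strains, 4 for D8A, 4 for D8B and 0 for D8B against D8A. At that threshold, 126, 115, 119 and 68 of the 430 tested chromosome-end genes passed in the same 4 comparisons. The shares of adjusted calls are therefore no measure for these unadjusted counts. Chromosome-end genes were also called more often than all features tested, whose share at the unadjusted threshold was not counted. SIR3, a subunit of the Sir complex, held 13.0 and 13.3 FPKM in D8A, 11.6 and 15.1 in D8B, and 17.4 and 22.8 in WT (limma adjusted p = 0.16). SIR2, its deacetylase subunit, held 17.2 and 23.1 FPKM in D8A, 20.1 and 19.4 in D8B, and 19.4 and 19.9 in WT.

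D8B and D8A share a labelled genotype and differed in 6 chromosome-end genes (1.4%, beside 0.332% of all features tested). The 6 may not be separate measurements, since AAD6 and AAD16 are neighbours and YAR070C and YHR214C-E are mostly repeated. AAD6, an aryl-alcohol dehydrogenase pseudogene in the annotation, held 32.2 and 33.0 FPKM in D8B, 159 and 154 in D8A, and 51.4 and 31.2 in WT. It was lower in D8B than in D8A by a log2 difference of -2.23 (SE 0.25, limma adjusted p = 0.0196). AAD16, its neighbour, held 33.8 and 37.5 FPKM in D8B and 152 and 164 in D8A, against 57.0 and 34.1 in WT, a difference of -2.12 (SE 0.26, limma adjusted p = 0.0226). D8A stood above both other strains in these genes, and D8B lay within or close to the WT range. The D8B against D8A calls of AAD6 and AAD16 were both lost under 7 of 15 alternatives, among them without D8A replicate 1, without D8B replicate 1 and without D8B replicate 2, with highest adjusted p of 0.118 and 0.14.

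PHO89, the sodium-coupled phosphate transporter, held 56.5 and 72.2 FPKM in D8B, 226 and 270 in D8A, and 86.1 and 110 in WT, a difference of -1.94 (SE 0.24, limma adjusted p = 0.0226) between D8B and D8A. The strains did not overlap, and the call was lost under 4 of 15 alternatives, among them without the filter on low values, without D8B replicate 1 and without D8B replicate 2, with a highest adjusted p of 0.132. YAR070C held 1.06 and 1.88 FPKM in D8B, 13.7 and 14.9 in D8A, and 7.11 and 16.3 in WT (limma adjusted p = 0.0472). YHR214C-E held 2.48 and 3.77 FPKM in D8B, 13.7 and 12.4 in D8A, and 15.9 and 16.3 in WT (limma adjusted p = 0.0369). Both are mostly repeated genes of 300 bp and no function is given for them. Their D8B against D8A calls were lost under 10 and 11 of 15 alternatives, among them without any one of the D8A or D8B libraries, and for YHR214C-E also without either WT library, with highest adjusted p of 0.172 and 0.14. YLR466C-B, a 117 bp feature, held 22.9 and 78.5 FPKM in D8B, was listed at 0 in both D8A libraries, and held 25.3 and 4.58 in WT (limma adjusted p = 0.0369). Its call was lost under 9 of 14 alternatives, among them without D8A replicate 1, without D8A replicate 2 and without D8B replicate 2, with a highest adjusted p of 0.285.

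The 6 iron uptake genes near chromosome ends, which act when Aft1 is active, stood higher in D8B than in D8A in value, but none passed the adjusted test between these strains. All 6 had an unadjusted p under 0.05, which was also reached by 68 of the 430 tested chromosome-end genes, these 6 included. Their median difference was 2.25 log2 units, beside 0.07 over all features. The 6 were chosen with earlier results known, so this is a description and not a test of the group. FIT3, a cell wall mannoprotein that holds iron carriers, held 1139 and 2868 FPKM in D8B, 443 and 20.2 in D8A, and 107 and 150 in WT (limma adjusted p = 0.295 for D8B against D8A). FIT1, its relative, held 9.14 and 62.5 FPKM in D8B, 9.34 and 2.06 in D8A, and 6.79 and 17.4 in WT (limma adjusted p = 0.524). The 2 D8A libraries differed widely in FIT3, and in FIT1 all 3 strains overlapped.

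The siderophore transporters behaved alike in value. ARN2 held 136 and 219 FPKM in D8B, 37.5 and 9.87 in D8A, and 22.5 and 38.5 in WT. Against WT it rose in D8B by 2.51 log2 units (SE 0.56, limma adjusted p = 0.0474), the one call among the 6 genes. That call was lost under 10 of 15 alternatives, among them each fit without one of the D8B or WT libraries, with a highest adjusted p of 0.245. ARN1 held 110 and 145 FPKM in D8B, 61.7 and 12.2 in D8A, and 30.6 and 39.2 in WT. ENB1, the enterobactin transporter, held 197 and 226 FPKM in D8B, 74.99 and 22.2 in D8A, and 69.2 and 96.0 in WT. FRE5, a putative ferric reductase, held 15.7 and 31.3 FPKM in D8B, 12.2 and 5.28 in D8A, and 4.07 and 7.3 in WT. In FIT3, ARN1, ARN2, ENB1 and FRE5 both D8B libraries lay above both D8A and both WT libraries, and in FIT1 they did not. The share of all features ordered in this way was not counted. D8A replicate 1 was the higher of the D8A libraries in all 6 genes.

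**Figure D5:**
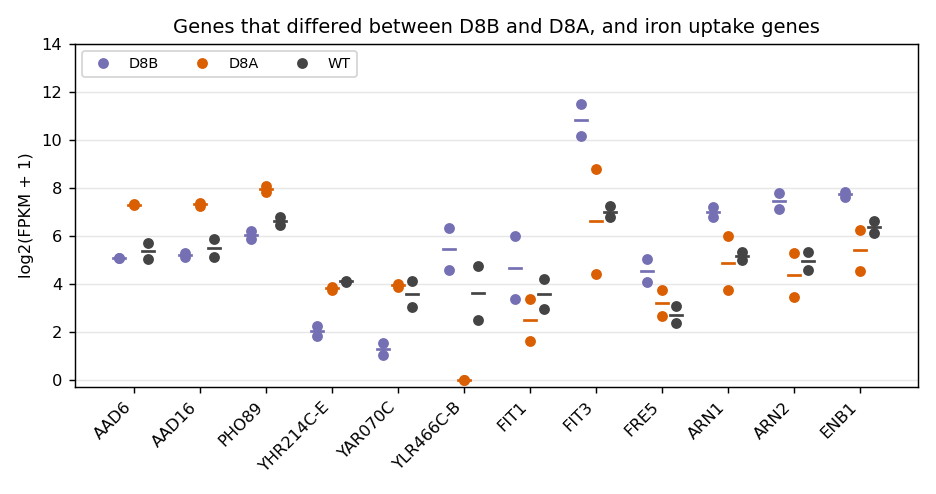
Level of the 6 genes called between D8B and D8A, on the left, and of the 6 iron uptake genes, on the right, as log2(FPKM + 1) in each library, with a bar at the mean of the 2 libraries of D8B, D8A and WT. D8B lies below D8A for AAD6, AAD16, PHO89, YHR214C-E and YAR070C, and the 2 D8A points of FIT3 lie far apart.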

How the data were processed

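Each library has 1 deposited table of FPKM (fragments per kilobase, relative to all mapped fragments) with interval bounds, per the file headers. The submitters' processing notes name R64, Bowtie2 2.1.0, TopHat2 2.0.9 and Cufflinks 2.1.1 without role or order. The sources used here do not state if strand was used in counting, so overlapping features cannot be told apart. Starts in the tables count from 0, and coordinates above are 1-based. Of 7126 features per table, 7051 had the status OK in every library. Chromosome-end genes were matched to the RefSeq R64 annotation, where 362 of 448 were found and 358 had equal coordinates. The repeated share of a gene is the percent of its 50-base words that occur again in R64.

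Depth was estimated from the steps of the upper interval bound, with a tolerance of 0.02 for a whole multiple. Features with a mean of at least 1 FPKM over the 6 libraries were tested on log2(FPKM + 1). One linear model with a mean per strain was fitted (limma 3.58.1, R 4.3.3, two-sided). Variances were moderated with a trend on the mean, at 3 residual and 4.7 prior degrees of freedom. A gene listed at 0 in every library of a strain adds no spread there. Tables and figures were made with Python 3.11.15, pandas 2.3.3 and matplotlib 3.10.9.

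The genes and lists were chosen with earlier results of these data known. Genes were named by size of change among called genes with a mean of at least 5 FPKM, and by family, level and chromosome end. Further genes were chosen after their values were seen, among them YGL262W, ZRT1, YDL241W, YJR154W, HXK1, MGA2, LYS1, DAL3, DAL4, GTT1, YPS6, FIT1, FRE5, ARN1 and ENB1. The same holds for the use of the interval midpoint and for leaving out mostly repeated genes. Alternatives were another pseudocount, filter, scaling, window, variance prior and replicate block, and leaving out each library.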

Additional observations from a re-analysis of the deposited data

Results flagged for a closer look

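The difference between D8B and D8A was itself tested with limma, and 6 chromosome-end genes passed it (1.4%, beside 0.332% of all features tested). The log2 difference, D8B minus D8A, was -2.65 for YAR070C, -1.94 for PHO89, -2.12 for AAD16, -2.23 for AAD6 and -1.79 for YHR214C-E, all lower in both D8B libraries than in both D8A libraries. It was 5.45 for YLR466C-B, which was listed at 0 in both D8A libraries, so that this value depends on the pseudocount and is no bound.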

How the results depend on the processing

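Counts of called chromosome-end genes depended on the settings more than their medians, which moved by less than the SD of library medians under every alternative run. For both null strains against WT the count was 49 (11.4%, beside 6.45% of all features), and 75 with robust variances (17.4%, beside 10.7%), 90 over features of 300 bp or more (23.3%, beside 15.3%) and 27 in a 15 kb window, which holds 236 tested genes and the same share of 11.4%. For D8A against WT it was 51 (11.9%), and 29 in a 15 kb window (12.3%). For D8B against WT it was 44 (10.2%, beside 4.9%), and 26 without the filter on low values (5.8%, beside 2.48%), 83 over features of 300 bp or more (21.5%, beside 13.2%) and 25 in a 15 kb window (10.6%). For D8B against D8A it was 6 (1.4%, beside 0.332%), and 0 without the filter (beside 0.156%), 2 with median-centred libraries (0.465%, beside 0.26%), 2 with quantile normalization (0.465%, beside 0.231%), 15 with robust variances (3.49%, beside 1.68%), 31 over features of 300 bp or more (8.03%, beside 3.19%) and 15 with interval midpoints (3.49%, beside 1.18%). Prior degrees of freedom were 247 over features of 300 bp or more, 22.7 with robust variances and 1.9 without the filter, against 4.7. Over the fits that leave out 1 library, counts ran from 24 to 62 for both null strains, 20 to 50 for D8A, 22 to 56 for D8B, each against WT, and 0 to 8 for D8B against D8A. A strain left with 1 library is assumed to vary like the others. Same-numbered libraries deviated with correlations of -0.254 (D8A and D8B), -0.148 (D8A and WT) and 0.332 (D8B and WT). These differ in sign and show no pairing common to all 3 strains, and a batch shared by some libraries was not tested. With a replicate block, 38 were called for both null strains against WT (8.84%, beside 4.49%). For D8A against WT it was 32 (7.44%, beside 2.7%) and for D8B against WT 30 (6.98%, beside 3.08%). With the block 0 were called for D8B against D8A, beside 0.13% of all features. Among genes named in the text or by rule, 53 of 129 calls held under every alternative and none reversed. With 2 libraries a strain, small changes cannot be told from the spread between libraries.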
